A study of Homo sapiens with 6 samples.

Results

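The nuclear-encoded subunits of respiratory complexes II, III and IV and of the ATP synthase (complex V) were compared between control and IRS2 knockdown libraries of SW403, an established human colon adenocarcinoma cell line. Members were taken by symbol alone (SDHA to SDHD, CYC1, and all symbols beginning with UQCR, with COX and a digit from 4 to 8 followed by a letter, or with ATP5), which selected 51 of the 26490 gene symbols in the count table. Of these, 4 belong to complex II, 10 to complex III, 17 to complex IV and 20 to complex V, counted with 1 inhibitor (ATP5IF1), a read-through transcript (ATP5MF-PTCD1), gene copies (UQCRHL and ATP5MGL) and a supercomplex factor (COX7A2L) whose symbols match. The table uses the older symbols ATP5MD for ATP5MK and ATP5MPL for ATP5MJ, and these are kept here.

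RNA-seq was done on 3 control libraries, from cells labelled WT with normal IRS2 expression, and 3 libraries from cells with IRS2 knocked down, all grown for 24 h in DMEM with fetal bovine serum and without treatment. The labels do not say how IRS2 was lowered. The descriptions carry the letters NS for the control libraries and KO for the knockdown libraries. The labels number the libraries as biological replicates of cells seeded in triplicate. They do not say whether the cultures came from separately made lines, so p-values measure the spread between these cultures of a single cell line. IRS2 encodes insulin receptor substrate 2, an adaptor that couples the insulin and IGF1 receptors to their downstream kinases. It had 408, 437 and 381 counts in control against 186, 210 and 216 in knockdown, a log2 fold change of -1.39 ± 0.072 (SE) with an edgeR adjusted p of 3.12e-11, so the labels match the targeted gene.

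Complex II (succinate dehydrogenase) oxidises succinate to fumarate and passes the electrons to ubiquinone, and it is also an enzyme of the tricarboxylic acid cycle. Complex III passes electrons from ubiquinol to cytochrome c, complex IV (cytochrome c oxidase) passes them on to oxygen, and both build the proton gradient that complex V uses to make ATP. All subunits of complex II are encoded in the nucleus, whereas complexes III, IV and V combine nuclear subunits with others made from mitochondrial DNA. Insulin and IGF signalling and oxidative metabolism are linked in many tissues, and colon epithelial cells rely heavily on mitochondrial respiration.

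Totals were 11816973 to 12585013 counts in the control libraries and 14329348 to 18114656 counts in the knockdown libraries, so every knockdown library was deeper. Levels are given as CPM, counts divided by a library size that includes the TMM factor used in the test. Of the 51 members, 44 passed the expression filter and entered the test, with mean counts from 143 to 10200. Another 3, COX4I2, COX6A2 and COX8C, had 0 counts in every library. The remaining 4, COX6B2, COX7A1, COX7B2 and ATP5MGL, had at most 10 counts in a library. The epithelial keratin genes KRT8, KRT18 and KRT19 were present, as were CDX2 and EPCAM, whereas the colon markers KRT20, CDX1 and CEACAM5 had no count in any library and CDH1, LGALS4 and GPA33 were close to 0. The 12 colon epithelium markers summed to 2504 to 2609 CPM in control and 2383 to 2497 CPM in knockdown. Among the 6 of them tested, KRT19 (-0.47) and EPCAM (-0.21) fell and CDX2 rose (0.14 on the log2 scale). The CDX2 call was lost with DESeq2 (adjusted p 0.0552) and without control library 1 or knockdown library 2. Another of the 6 had the largest log2 fold change, 0.35, and did not pass the threshold. The 12 stromal, endothelial and immune markers summed to only 13.7 to 32.5 CPM in control and 10.6 to 13.6 CPM in knockdown, with PECAM1 and CDH5 at 0. COL1A1 (-1.15) and COL3A1 (-1.71 on the log2 scale) fell among the 5 of them tested. Control library 1 was the highest for both: COL1A1 had 193, 72 and 67 counts in control against 61, 62 and 72 in knockdown, and COL3A1 34, 19 and 5 against 6, 3 and 14, where the groups overlapped. Without control library 1 the log2 fold change was -0.50 for COL1A1 (edgeR adjusted p 0.0325; DESeq2 with all libraries, 0.0705) and -1.04 for COL3A1 (edgeR adjusted p 0.179), and the COL3A1 call was also lost without knockdown library 2 (0.0766). The part of these marker changes in the results on the respiratory subunits was not tested.

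After IRS2 knockdown, more subunits passed the test as lower than as higher, mostly by small amounts. The numbers came close to each other once a robust trend with transcript length was removed, but not with a least-squares trend. Of the 44 tested members, 17 fell and 3 rose in edgeR's quasi-likelihood test (adjusted p under 0.05), and 36 had a log2 fold change below 0. Over all 13832 tested genes, 19.2% fell and 19.3% rose, and 50.8% were below 0. Among the members 38.6% fell and 6.82% rose. The median log2 fold change was -0.081 for the members and -0.0039 for all tested genes, with single members between -0.43 (ATP5PB) and 0.38 (COX7C). The 3 libraries of one group lay wholly below or above those of the other for 18 members in the direction of lower and 4 in the direction of higher, where 23.9% and 23.7% of all tested genes did so. With counts thinned to the depth of the smallest library 15 members fell and 2 rose, beside 2465 and 2494 of all 13620 genes then tested. The Wald test of DESeq2 gave 9 and 2 members, beside 1848 and 2042 of all 13832 tested genes. After the removal of the robust length trend 6 fell, 4 rose and the median was -0.0044. With the least-squares length trend 15 fell and 3 rose, beside 2857 and 2897 of all 13832 tested genes. In these bulk libraries, fewer cells of a type and less RNA per cell cannot be told apart.

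**Figure D1:**
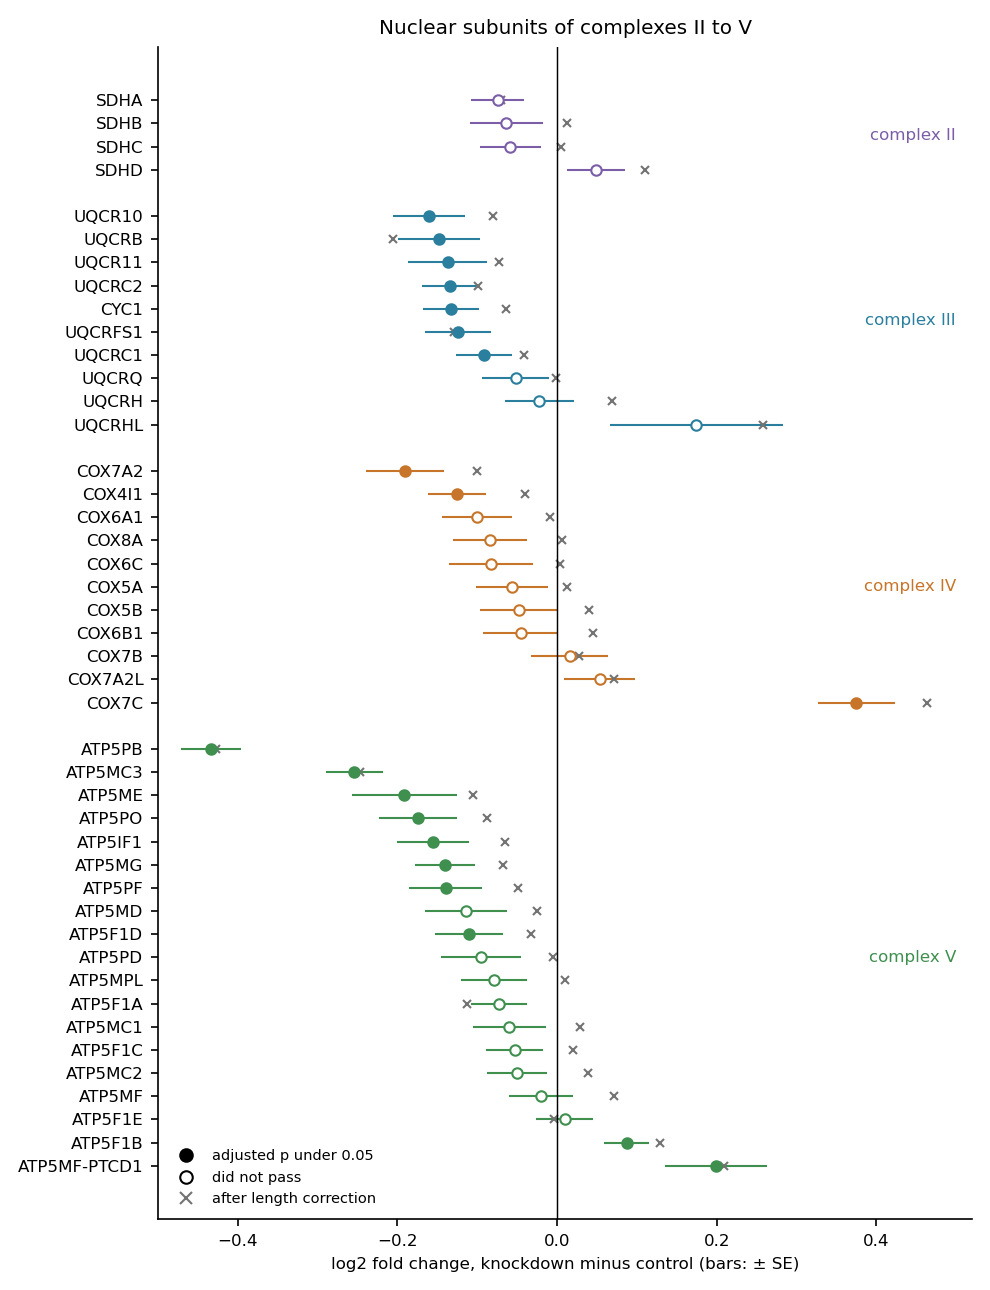
Log2 fold change of knockdown against control for each of the 44 tested members, grouped by complex, with ± SE as bars, filled points for those with an adjusted p under 0.05 and crosses for the value after length correction. ATP5PB lies lowest (-0.43) and COX7C highest (0.38), and most of the others lie between -0.2 and 0.

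The single libraries did not contribute equally. Relative to the mean of the control libraries, the median member stood at 0.028, 0.012 and -0.041 (log2) in control libraries 1, 2 and 3, and at -0.109, -0.107 and -0.033 in knockdown libraries 1, 2 and 3. Control library 3 was thus the lowest of the controls and knockdown library 3 the highest of the knockdown libraries, and these medians lay close to each other. The median over all tested genes stayed between -0.0023 and 0.0039 in every library. Leaving out knockdown library 3 raised the number of members that fell to 22. It was 16 without control library 3, 11 without control library 1, 9 without control library 2, 9 without knockdown library 1 and 8 without knockdown library 2. Over all tested genes, 2598 of 13967 fell without knockdown library 3 and 2355 of 14102 without control library 3. Without control libraries 1 and 2 in turn, 2288 of 14068 and 2144 of 14079 fell. Without knockdown libraries 1 and 2 in turn, 2277 of 13947 and 2146 of 13937 fell. Of the 17 that fell, 7 (CYC1, UQCR10, UQCRC2, COX7A2, ATP5MC3, ATP5MG and ATP5PB) passed the threshold whichever library was left out. Of the 3 that rose, COX7C did.

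**Figure D2:**
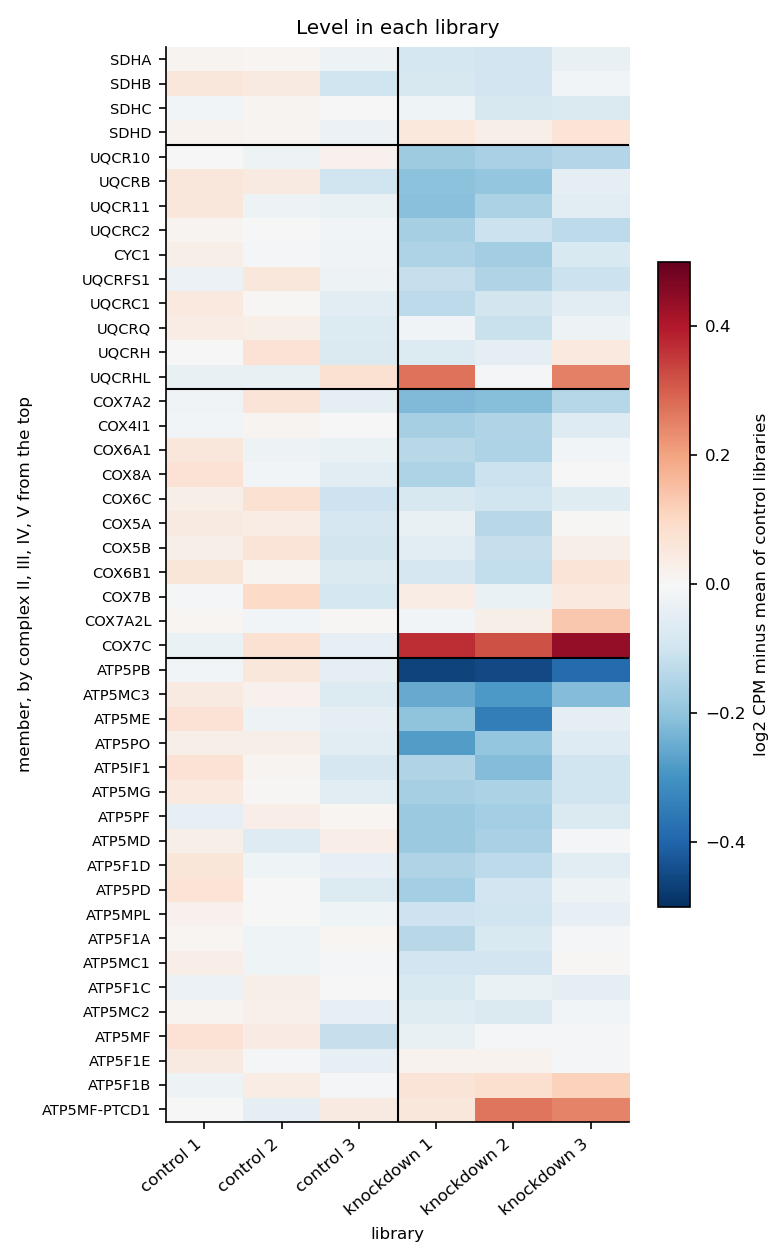
Level of each tested member in each of the 6 libraries, as log2 CPM minus the mean of the 3 control libraries, with rows grouped by complex. Knockdown libraries 1 and 2 are lower in most rows (medians -0.109 and -0.107), while knockdown library 3 (median -0.033) is close to control library 3 (median -0.041).

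Most respiratory subunits have short messenger RNAs, and the comparison differed with transcript length over the whole table. The median canonical transcript was 1005 nt for the tested members and 3275 nt for all tested genes. When the genes with a known length (97.3% of those tested) were divided into 5 equal bins, the median log2 fold change went from -0.052 in the shortest bin (110 to 1748 nt) to 0.038 in the longest (5742 to 109224 nt). The shortest bin held 32 of the 44 members, of which 12 fell and 1 rose, with a median of -0.084. In that bin 21.7% of all genes fell and 9.51% rose. When a robust trend of level on transcript length was removed in each library, 6 members fell and 4 rose, beside 20.1% and 20.3% of all tested genes, and the median of the members was -0.0044. The 6 that fell were UQCRB, UQCRC2, UQCRFS1, ATP5F1A, ATP5MC3 and ATP5PB, and the 4 that rose were SDHD, COX7C, ATP5F1B and ATP5MF-PTCD1. This fit was chosen after a least-squares trend over all tested genes was seen to leave bin medians from -0.040 to 0.057; the robust one left 0.015 to -0.016. With the least-squares trend, 15 members fell and 3 rose, beside 2857 and 2897 of all 13832 tested genes. Lengths are those of 1 canonical transcript per gene, which for some members is far longer than the usual messenger RNA (UQCRB, 8459 nt). The transcripts used in these cells were not measured. UQCRB and ATP5F1A (5761 nt) are the 2 members in the longest bin, where the robust correction took the median from 0.038 to -0.016. Their corrected values depend on these lengths.

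**Figure D3:**
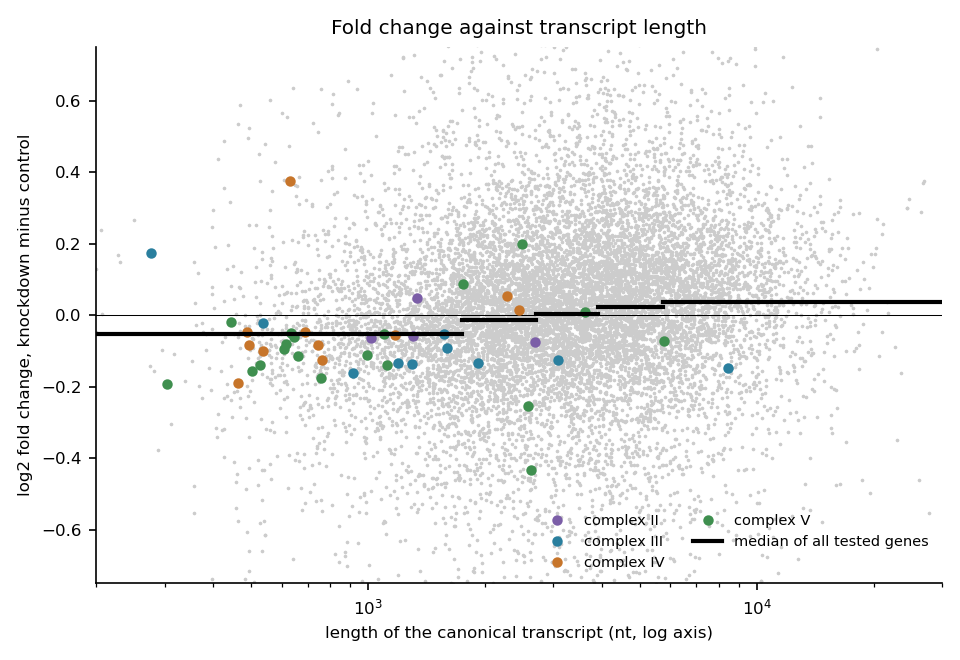
Log2 fold change against canonical transcript length (log axis) for all tested genes, with the 44 members coloured by complex and the median of each length bin as a line; genes beyond the axes are not drawn. The bin medians rise from -0.052 to 0.038, and 32 of the members lie in the shortest bin.

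No subunit of complex II passed the threshold in edgeR's test, nor in the DESeq2 Wald test or limma voom, where 0 were called too; at an unadjusted p under 0.05, 1 (SDHA) was lower and 0 were higher in edgeR. SDHA is the flavoprotein that holds the succinate-binding site, and it stood at 193, 193 and 188 CPM in the control libraries and 179.8, 179 and 186 CPM in the knockdown libraries. All 3 knockdown values were below the control values, with a log2 fold change of -0.074 ± 0.033 (SE) and an edgeR adjusted p of 0.0861. SDHB, the iron-sulfur subunit that relays the electrons, was at 95.5, 94.9 and 85.8 CPM in control and 87.1, 86.1 and 91.2 CPM in knockdown. Its groups overlapped, because control library 3 lay below all of the knockdown libraries.

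The membrane anchors SDHC and SDHD, which hold the haem and the ubiquinone site, had values of opposite sign, neither past the threshold. SDHC was at 106, 108 and 107 CPM in control and 105, 101 and 102 CPM in knockdown, with every knockdown value below every control value. SDHD was at 124, 123 and 119.7 CPM in control and 127, 125 and 128 CPM in knockdown, with every knockdown value above. The 95% intervals of the log2 fold changes, not adjusted for the number of genes, were -0.14 to -0.0046 for SDHA, -0.16 to 0.033 for SDHB, -0.14 to 0.021 for SDHC and -0.027 to 0.12 for SDHD, and none of them reached below -0.16. After length correction SDHD rose by 0.11 on the log2 scale (edgeR adjusted p 0.00858), and the median of complex II changed from -0.061 to 0.0087. SDHA fell in 5 of the 19 alternative analyses, the one without knockdown library 3 among them. SDHD has 5 near-identical copies of its coding sequence elsewhere in the genome and SDHA shares 1870 of its 2693 exonic nt with another annotated gene model, so the assignment of their reads is uncertain.

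Complex III had 10 members, all tested, and their counts stand beside 19.2% lower and 19.3% higher over all tested genes. Of these, 7 fell and none rose at an adjusted p under 0.05, with -0.128 as the median log2 fold change, and the number that fell was 2 with DESeq2 (CYC1 and UQCRC2), 4 with the replicate number as a block, 3 after length correction, 4 without control library 1, 3 without control library 2, 4 without knockdown library 1 and 3 without knockdown library 2. None was higher with DESeq2 or voom, nor at an unadjusted p under 0.05 in edgeR. With voom 7 fell. Over all 13832 tested genes, 1848 fell and 2042 rose with DESeq2. The 2 catalytic subunits both fell. CYC1 is cytochrome c1, the haem protein that hands electrons to cytochrome c, and it was at 188, 183 and 182 CPM in control and 165, 163 and 175 CPM in knockdown. The groups did not overlap, and the log2 fold change was -0.13 ± 0.036 (SE) with an edgeR adjusted p of 0.00595. After length correction it was -0.064 (edgeR adjusted p 0.0839), which did not pass. The Rieske iron-sulfur protein UQCRFS1 was at 91.6, 97.3 and 92.0 CPM in control and 86.4, 84.4 and 86.9 CPM in knockdown, again without overlap. It fell by 8.24% (edgeR adjusted p 0.0222) and passed the threshold in all but the fits without control library 2 and without knockdown library 2 among those that left out a library. DESeq2 gave an adjusted p of 0.0851.

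The core subunits UQCRC1 and UQCRC2, large matrix-side proteins related to mitochondrial processing peptidases, fell as well. UQCRC2, on chromosome 16, 21964609 to 21994981 (GRCh37), was at 148, 147 and 145 CPM in control and 131, 136 and 134 CPM in knockdown. Within each group its libraries lay close together and the groups stood apart. The log2 fold change was -0.13 ± 0.035 (SE) with an edgeR adjusted p of 0.0051, and over the 19 alternative analyses it passed the threshold in every one, with values from -0.16 to -0.10. UQCRC1 stood at 248, 241 and 230.4 CPM in control and 219, 225 and 230.4 CPM in knockdown, where control library 3 and knockdown library 3 were level. It fell by 6.18%, close to the threshold (edgeR adjusted p 0.0442), and did not pass it without control library 1 or 2 or knockdown library 1 or 2, with DESeq2 (adjusted p 0.0887), or after length correction (-0.042, edgeR adjusted p 0.244).

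Of the 5 small subunits, UQCR10, UQCR11 and UQCRB fell, and UQCRQ and UQCRH did not pass the threshold. UQCR10, a short membrane-spanning subunit associated with cytochrome c1, was at 60.9, 59.7 and 61.7 CPM in control and 53.8, 54.3 and 55.0 CPM in knockdown. It fell by 10.5%, the most in the complex (log2 fold change -0.16 ± 0.045 (SE), edgeR adjusted p 0.00794), with no overlap between groups. Neither DESeq2 (adjusted p 0.0533) nor the fit after length correction (-0.081, edgeR adjusted p 0.162) called it. UQCR11, the smallest subunit, was at 68.7, 65.0 and 64.5 CPM in control and 57.2, 59.1 and 63.6 CPM in knockdown, with knockdown library 3 just under the lowest control. UQCRB, a subunit next to the ubiquinone-binding region, was at 93.6, 93.0 and 83.9 CPM in control and 78.1, 78.7 and 87.2 CPM in knockdown. Control library 3 and knockdown library 3 overlapped for UQCRB, and both UQCR11 (edgeR adjusted p 0.0356) and UQCRB (edgeR adjusted p 0.0287) missed the threshold when any one of control libraries 1 and 2 and knockdown libraries 1 and 2 was left out and with DESeq2 (0.116 and 0.0673). After length correction UQCR11 was at -0.073 (edgeR adjusted p 0.193) and no longer called, whereas UQCRB was at -0.21 (0.00452). UQCRQ had a log2 fold change of -0.052 ± 0.042 (SE) and UQCRH one of -0.022 ± 0.043 (SE).

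UQCRH encodes the acidic hinge protein that contacts cytochrome c1, and UQCRHL is a copy on the same chromosome that almost repeats its coding sequence. The coding sequences, 273 nt each, differ at 4 positions counted from the first coding base: G158A, G167A, G231A and G233A, with the UQCRH base first. Coding bases 150 to 240 are shown because they hold all 4 differences of the coding sequences, in capitals. The canonical transcripts have 537 nt (UQCRH) and 276 nt (UQCRHL), and their parts outside the coding sequence were not compared. The bases are those of GRCh37.
UQCRH: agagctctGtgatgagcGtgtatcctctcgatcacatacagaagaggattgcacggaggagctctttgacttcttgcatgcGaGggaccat
UQCRHL: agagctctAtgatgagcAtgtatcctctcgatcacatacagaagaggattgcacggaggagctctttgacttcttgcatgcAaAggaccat
Of the counts assigned to either gene, UQCRHL took 6.51%, 6.20% and 7.33% in the control libraries and 8.29%, 6.85% and 7.59% in the knockdown libraries. Knockdown libraries 1 and 3 were above all controls and knockdown library 2 was below control library 3, so the groups overlapped. UQCRHL itself was at 9.04, 9.03 and 9.77 CPM in control and 11.2, 9.23 and 11.1 CPM in knockdown, with a log2 fold change of 0.17 ± 0.11 (SE) and an edgeR adjusted p of 0.222. Neither level can be taken apart from how reads common to both genes were assigned.

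The promoters of the members were read from RefSeq (GRCh38.p14, 250 bases before to 50 after the gene start), where 38 of the 51 members and 34 of the 44 tested had an entry. NRF1, a transcription factor known for binding the promoters of many respiratory genes, has a near-palindromic site, searched as GCGCA, any base and GCGC. These letters, sought on both strands, were in 10 of the 34 promoters of tested members (29.4%), in 11.6% of the 10820 promoters of tested genes and in 6.28% of all 27305 promoters. Of the 13 members that fell and had a promoter entry, 6 held it. Of the 7 complex III subunits that fell, CYC1 and UQCRB had no promoter entry, UQCRC2 had one without these letters, and the other 4 held them. The windows of 30 bases of those 4 are shown, with the motif in capitals and the strand of the gene.
UQCR10: gtcggccccaGCGCAGGCGCggtggcgcga (chr22:29767351-29767380, plus strand, motif starting at position -8 from the gene start)
UQCR11: cgccgcggccGCGCCTGCGCagtgtagccg (chr19:1605453-1605482, minus strand, position -10)
UQCR11: ccctccccgcGCGCGTGCGCgccgcggccg (chr19:1605472-1605501, minus strand, position -29)
UQCRC1: gtacggtactGCGCCTGCGCcgcgaccgcc (chr3:48609674-48609703, minus strand, position -47)
UQCRFS1: gcgcctcctcGCGCCTGCGCcgtggttgga (chr19:29213163-29213192, minus strand, position -31)
SDHA, which did not pass the threshold, held the motif 4 times. SDHD, ATP5F1C and ATP5MPL, which did not pass it either, held the motif 1 time each. The letters CCGGAAG, the core of sites for the ETS family that includes GABPA, were in 44.1% of the members' promoters, 19.0% of those of tested genes and 10.7% of all. The YY1 letters AAGATGGC were in 14.7%, 5.26% and 3.03%, the CCAAT box in 41.2%, 36.5% and 35.7% and the GC box GGGCGG in 61.8%, 70.7% and 44.6%. In the 13 promoters of members that fell, the NRF1 letters were in 46.2% and the YY1 letters in 30.8%, above their shares in the tested members. The ETS letters (38.5%), the CCAAT box (30.8%) and the GC box (53.8%) were below those shares. Whether any of these shares went with the falls was not tested. None of the words given so far contains another. The messenger RNA of NRF1 itself was at 27.5 ± 0.594 CPM in the 3 control libraries against 27.6 ± 0.931 CPM in the 3 knockdown libraries (mean ± SD, n = 3 each), and that of GABPA at 50.7 ± 4.13 CPM in the 3 control libraries against 49.3 ± 1.95 CPM in the 3 knockdown libraries (mean ± SD, n = 3 each), neither past the threshold. A match is a description of the sequence, and binding was not measured.

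Complex IV showed 2 members that fell (18.2%) and 1 that rose (9.09%) among 11 tested. Over all tested genes 19.2% fell and 19.3% rose, so the share that fell was near that of the whole table. The rise was the largest change in the complex. The 6 others of its 17 members are isoforms of other tissues, at 0 or near 0: COX4I2 and COX6A2, known from lung and muscle, COX7A1 from heart and muscle, and COX6B2, COX7B2 and COX8C from testis. COX6B2, the highest of them, had 4, 2 and 5 counts in control and 10, 6 and 7 in knockdown. The median log2 fold change of the tested members was -0.057, and 0.0127 after length correction, when 0 fell in edgeR (1 at an unadjusted p under 0.05). The number that fell was 1 without control library 2, 1 without knockdown library 1, 1 without knockdown library 2 and 4 without knockdown library 3.

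COX7C, a small membrane-spanning subunit on chromosome 5, 85913745 to 85916779 (GRCh37), rose. Its levels were 59.5, 64.2 and 59.2 CPM in the control libraries and 78.6, 75.9 and 82.6 CPM in the knockdown libraries. The lowest knockdown library lay above the highest control library by more than the spread within either group. Means were 61.0 ± 2.78 CPM in the 3 control libraries against 79.1 ± 3.37 CPM in the 3 knockdown libraries (mean ± SD, n = 3 each), a rise of 29.7% with a log2 fold change of 0.38 ± 0.048 (SE) and an edgeR adjusted p of 5.06e-06. In the 19 alternative analyses it passed the threshold every time, with log2 fold changes from 0.34 to 0.46. The 250 bases before the RefSeq start of COX7C are shown because COX7C had the largest rise of all tested members. Capitals mark the word made of TTCCCA, any 2 bases and AT, the core of the site of ZNF143, which was chosen after this sequence was seen.
COX7C: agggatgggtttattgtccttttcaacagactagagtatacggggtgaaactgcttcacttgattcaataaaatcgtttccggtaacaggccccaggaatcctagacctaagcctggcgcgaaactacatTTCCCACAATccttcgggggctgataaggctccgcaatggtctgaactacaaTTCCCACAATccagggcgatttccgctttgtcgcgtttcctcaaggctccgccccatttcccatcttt (chr5:86617691-86617940, plus strand, GRCh38.p14)
The word stands there in duplicate. It was in 2 of the 34 promoters of tested members (5.88%), those of COX7C and UQCR10, and in 1.53% of the promoters of tested genes and 1.61% of all. The COX7C hit follows from the choice of the word, so the share in the members cannot be set against the other shares. UQCR10 fell. The COX7C coding sequence has 2 near-identical copies in GRCh37, one on chromosome 13 with 97.9% identity and one on chromosome 1 with 97.4%, so reads could be shared with them.

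COX7A2 and COX4I1 were the members of complex IV that fell. COX7A2, the isoform of subunit 7A found in most tissues, was at 57.5, 60.8 and 56.4 CPM in control and 49.9, 50.2 and 52.7 CPM in knockdown, with no overlap. It fell by 12.4% (log2 fold change -0.19 ± 0.049 (SE), edgeR adjusted p 0.00422), while its relative COX7A2L, which takes part in joining complexes III and IV in supercomplexes, had a log2 fold change of 0.053 ± 0.044 (SE) (edgeR adjusted p 0.373). The 95% intervals of the 2 genes, -0.29 to -0.089 and -0.04 to 0.15, do not overlap, and the difference itself was not tested. COX7A2L was at 86.6, 85.2 and 86.4 CPM in control and 85.2, 87.7 and 94.4 CPM in knockdown, highest in knockdown library 3. COX4I1, the subunit at which ATP is known to slow the enzyme, was at 155, 158 and 157 CPM in control and 139.7, 141 and 149.6 CPM in knockdown. The knockdown values were all below the controls (log2 fold change -0.13 ± 0.037 (SE), edgeR adjusted p 0.0104), but the threshold was missed without control library 2, knockdown library 1 or knockdown library 2. After length correction the log2 fold change was -0.10 for COX7A2 (edgeR adjusted p 0.0867) and -0.04 for COX4I1 (edgeR adjusted p 0.346).

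The other tested subunits of complex IV did not pass the threshold. COX6A1 was at 123, 117 and 116 CPM in control and 108, 107 and 118 CPM in knockdown and COX8A at 109.9, 103 and 100.4 CPM in control and 94.0, 97.0 and 104 CPM in knockdown. COX6B1 was at 149.7, 145 and 137 CPM in control and 136, 132 and 150.1 CPM in knockdown. In these 3 genes, whose tissue isoforms COX6A2, COX8C and COX6B2 were at or near 0, knockdown library 3 was the highest knockdown library and the groups overlapped. COX5A, COX5B, COX6C and COX7B, small subunits around the catalytic core, had log2 fold changes of -0.057, -0.048, -0.083 and 0.016, with overlapping groups in each. COX7B changed sign under other scalings, with -0.0050 for upper-quartile factors and -0.015 for library size alone.

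**Figure D4:**
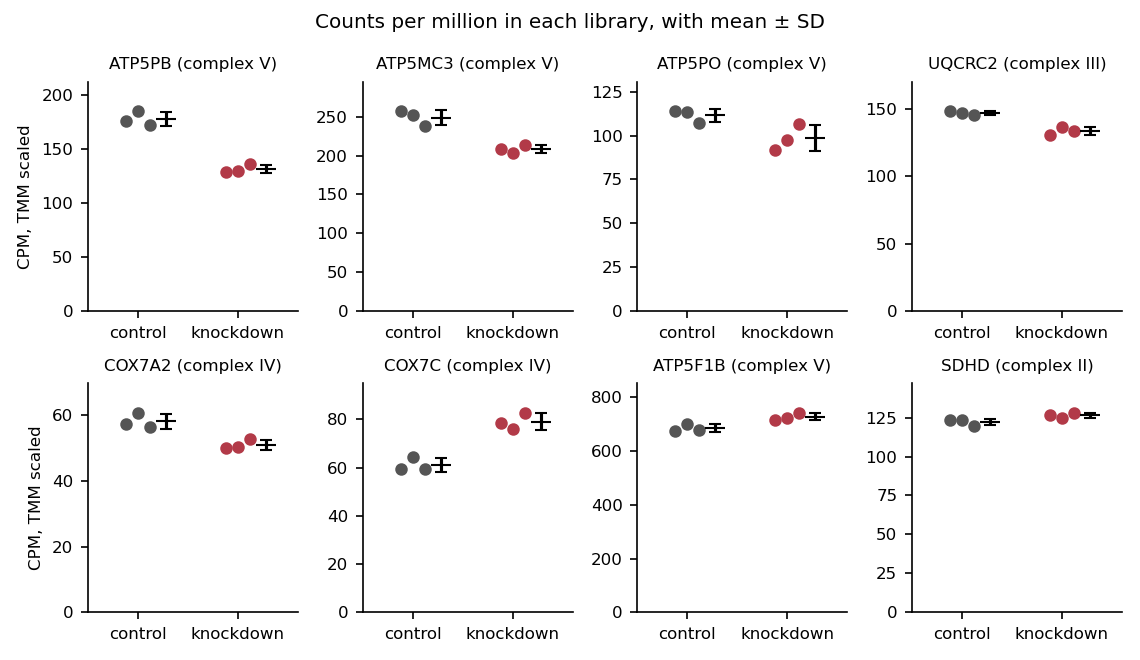
CPM of ATP5PB, ATP5MC3, ATP5PO, UQCRC2, COX7A2, COX7C, ATP5F1B and SDHD in each library, as points, with the group mean ± SD (n = 3 each) beside them and axes from 0. ATP5PB and ATP5MC3 are lower in all 3 knockdown libraries and COX7C is higher in all 3.

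Complex V had the largest single fall. Of its 20 members, 19 were tested, 8 fell (42.1%) and 2 rose (10.5%) at an adjusted p under 0.05, and the median log2 fold change was -0.095. Over all tested genes 19.2% fell and 19.3% rose. After length correction 3 of the 19 fell and 2 rose, and the median was -0.025. Over all tested genes 20.1% then fell and 20.3% rose. DESeq2 gave 5 and 1, beside 1848 and 2042 of all 13832 tested genes. The number that fell was 5 without control library 1, 5 without control library 2, 4 without knockdown library 1 and 4 without knockdown library 2. By role, before length correction, 3 of the 4 peripheral stalk subunits fell, 1 of the 3 c-ring genes, 2 of the 5 other membrane subunits, the inhibitor ATP5IF1, and 1 of the 5 subunits of the F1 head and central stalk, where another rose. After it the numbers that fell were 1 of the 4 stalk subunits (ATP5PB), 1 c-ring gene (ATP5MC3), 0 of the 5 other membrane subunits, 1 of the 5 head and central stalk subunits (ATP5F1A), and not the inhibitor. These roles hold few genes each, and no difference between them was tested.

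The peripheral stalk holds the catalytic head still while the rotor turns, and ATP5PB encodes its long subunit b. ATP5PB lies on chromosome 1, 111991486 to 112005395 (GRCh37) and was at 176, 185 and 172 CPM in the control libraries and 129, 130.0 and 136 CPM in the knockdown libraries. The highest knockdown library was far below the lowest control library. Means were 178 ± 6.44 CPM in the 3 control libraries against 132 ± 3.79 CPM in the 3 knockdown libraries (mean ± SD, n = 3 each), so that it fell by 25.9%, with a log2 fold change of -0.43 ± 0.038 (SE) and an edgeR adjusted p of 3.49e-08. Over the 19 alternative analyses the log2 fold change ran from -0.46 to -0.40 and stayed past the threshold in every one. Length correction left it at -0.43, but had little trend to remove at the assigned length. The canonical transcript has 2628 nt, in the length bin with a median of -0.014. The YY1 word is in the RefSeq promoters of 5 tested members. Of these, ATP5PB, ATP5PF, ATP5PO and UQCRC1 fell, and SDHB did not pass the threshold. A link between the word and the falls was not tested. The promoter of ATP5PB holds it on the strand opposite to the gene (GCCATCTT), and that of ATP5PF on the strand of the gene. These 2 windows are shown, with the word in capitals, as examples of each strand.
ATP5PB: acttgtgagcgGCCATCTTggtcctgccct (chr1:111449451-111449480, plus strand, GRCh38.p14, position -2)
ATP5PF: taggcgaagaaAAGATGGCggaggctgtgc (chr21:25735093-25735122, minus strand, position -57)
The messenger RNA of YY1 was at 189 ± 2.37 CPM in the 3 control libraries against 187 ± 0.640 CPM in the 3 knockdown libraries (mean ± SD, n = 3 each), which did not pass the threshold.

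ATP5PO is the subunit that ties the stalk to the head and lends the enzyme its sensitivity to oligomycin. It was at 114, 114 and 107 CPM in control and 92.0, 97.5 and 107 CPM in knockdown. All knockdown values lay below the controls, with knockdown library 3 closest to them (106.5 against 107.2 CPM in control library 3), and the log2 fold change was -0.17 ± 0.048 (SE) (edgeR adjusted p 0.00761), which missed the threshold without knockdown library 1 and after length correction (-0.088, edgeR adjusted p 0.0693). ATP5PO shares 482 of its 756 exonic nt with another annotated gene model. ATP5PF (coupling factor 6) was at 73.4, 77.3 and 76.1 CPM in control and 66.5, 67.3 and 71.9 CPM in knockdown, without overlap, and fell by 9.20% (edgeR adjusted p 0.0211), a call lost without control library 2 or 3 or knockdown library 1 or 2 and with DESeq2 (adjusted p 0.0804). After length correction the log2 fold change of ATP5PF was -0.049 (edgeR adjusted p 0.395). Its exons overlap those of GABPA on the other strand by 52 nt. ATP5PD, subunit d, had a log2 fold change of -0.10 ± 0.05 (SE) and did not pass the threshold (edgeR adjusted p 0.145).

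The c-ring, the proton-driven rotor, is built from identical mature subunits made from the genes ATP5MC1, ATP5MC2 and ATP5MC3. ATP5MC3, on chromosome 2, 176040986 to 176046438 (GRCh37), was at 257, 252 and 237 CPM in control and 209, 204 and 214 CPM in knockdown. Every knockdown library was below every control library. It fell by 16.1% (log2 fold change -0.25 ± 0.036 (SE), edgeR adjusted p 1.35e-05) and passed the threshold in all 19 alternative analyses. After length correction it stayed at -0.25, but its canonical transcript of 2587 nt lies in the same length bin as that of ATP5PB. The correction had little trend to remove there. ATP5MC1 was at 68.7, 66.1 and 66.6 CPM in control and 62.9, 62.8 and 67.3 CPM in knockdown, and ATP5MC2 at 117, 118 and 113 CPM in control and 111, 110.2 and 115 CPM in knockdown. The groups overlapped for each gene, since knockdown library 3 reached the control range. The 95% intervals were -0.33 to -0.18 for ATP5MC3, -0.16 to 0.037 for ATP5MC1 and -0.13 to 0.03 for ATP5MC2, and the differences between these genes were not tested. ATP5MC1 has 5 and ATP5MC2 3 near-identical copies of their coding sequence in the genome, whereas none was found for ATP5MC3.

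In the F1 head, ATP5F1B encodes the beta subunit that carries the catalytic sites, and it rose slightly. It was at 673, 702 and 679.8 CPM in control and 716, 725 and 742 CPM in knockdown. Every knockdown library lay above every control, by 6.25% on average (log2 fold change 0.087 ± 0.028 (SE), edgeR adjusted p 0.02). The call was lost without control library 1 (ATP5F1B, highest adjusted p in any such fit 0.0841) or knockdown library 2. It was also lost with the replicate block (edgeR adjusted p 0.0535) and with library size alone (0.057, edgeR adjusted p 0.0922). ATP5F1B passed in 14 of the 19 alternative analyses, and length correction gave 0.13. Its partner ATP5F1A, the alpha subunit, was at 283, 277 and 283 CPM in control and 255, 267 and 279 CPM in knockdown, with knockdown library 3 inside the control range. It did not pass the threshold (log2 fold change -0.072 ± 0.035 (SE), edgeR adjusted p 0.112), and after length correction it fell (-0.11, edgeR adjusted p 0.00906). That call depends on the assigned canonical transcript of 5761 nt, in the longest bin, where the correction lowered the median. The length used in these cells was not measured. ATP5F1A and ATP5F1B stand in equal number in the enzyme, and their 95% intervals, -0.15 to 0.00085 and 0.028 to 0.15, do not overlap, while the difference itself was not tested. In the central stalk, ATP5F1D (delta) fell by 7.38% with an edgeR adjusted p of 0.0452, a call lost when any one of control libraries 1 and 2 and knockdown libraries 1 and 2 was left out, with DESeq2 (adjusted p 0.128) and after length correction (-0.033, edgeR adjusted p 0.494). ATP5F1C (gamma) had a log2 fold change of -0.053 ± 0.035 (SE) and ATP5F1E (epsilon) one of 0.0094 ± 0.035 (SE), neither past the threshold.

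ATP5IF1 encodes the inhibitor that blocks the enzyme from running backwards as an ATPase. It was at 115, 110.1 and 103 CPM in control and 98.4, 94.1 and 102 CPM in knockdown. The groups did not overlap, although control library 3 and knockdown library 3 were close to each other, and the log2 fold change was -0.16 ± 0.045 (SE) (edgeR adjusted p 0.01). The threshold was missed without control library 1 or knockdown library 2, and after length correction (-0.065, edgeR adjusted p 0.168). The membrane subunits ATP5ME (e) and ATP5MG (g) help to pair ATP synthases along the cristae, and both fell. ATP5MG was at 153, 149 and 143 CPM in control and 132, 133 and 139 CPM in knockdown, with all knockdown values below the controls (log2 fold change -0.14 ± 0.038 (SE), edgeR adjusted p 0.00607). After length correction it was at -0.068 (edgeR adjusted p 0.0836) and did not pass. ATP5ME was at 49.4, 46.1 and 45.4 CPM in control and 40.8, 37.0 and 45.5 CPM in knockdown, where knockdown library 3 overlapped control library 3 and the spread was wider (log2 fold change -0.19 ± 0.066 (SE), edgeR adjusted p 0.0276). The call on ATP5ME was lost when any one of control libraries 1 and 2 and knockdown libraries 1 and 2 was left out, with DESeq2 (adjusted p 0.0747) and after length correction (-0.11, edgeR adjusted p 0.139). ATP5MF, ATP5MD and ATP5MPL, the remaining membrane subunits, had log2 fold changes of -0.02, -0.11 and -0.079 and did not pass the threshold.

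ATP5MF-PTCD1 is a read-through model that joins ATP5MF to PTCD1, a gene for a mitochondrial RNA-binding protein. It shares 2382 of its 2491 exonic nt with PTCD1 and 144 with ATP5MF. Its level was 32.1, 31.0 and 33.1 CPM in control and 33.3, 38.6 and 38.0 CPM in knockdown. Knockdown libraries 2 and 3 were clearly above the controls and knockdown library 1 only just. The log2 fold change was 0.20 ± 0.064 (SE) (edgeR adjusted p 0.0186), a rise that missed the threshold without control library 2, knockdown library 2 or knockdown library 3, and with DESeq2 (adjusted p 0.0778). Since nearly all of the model lies in PTCD1, this value does not measure the ATP synthase subunit f.

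Several members have relatives that can take their reads. Of the 44 tested members, 24 have at least 1 stretch elsewhere in GRCh37 with 90% identity or more over at least 80% of the coding sequence, most of them in SDHD and ATP5MC1 with 5 each and ATP5PD with 4. Among the 20 members that passed the threshold, 8 have such a copy, including COX7C with 2 and ATP5PB with 1 at 90.6% identity. Exons of 20 tested members overlap another annotated gene, on the same or the other strand. The labels do not say whether counting used strand or how reads with several matches were counted, so the part of these copies and overlaps in the values was not tested.

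Genes that work with the complexes were taken from lists, whose counts stand beside 19.2% lower and 19.3% higher over all tested genes. No mitochondrially encoded subunit of complexes III, IV and V was called lower by edgeR, DESeq2 or voom, and 0 were lower at an unadjusted p under 0.05 in edgeR. Of the 6, COX1 (MT-CO1) and COX2 (MT-CO2), the catalytic subunits of complex IV, rose, and CYTB, COX3, ATP6 and ATP8 did not pass the threshold. COX1 was at 13931 ± 206 CPM in the 3 control libraries against 16136 ± 188 CPM in the 3 knockdown libraries (mean ± SD, n = 3 each), with a log2 fold change of 0.21 ± 0.021 (SE) and an edgeR adjusted p of 2.27e-07. COX2 was at 4521 ± 223 CPM in the 3 control libraries against 5322 ± 63.3 CPM in the 3 knockdown libraries (mean ± SD, n = 3 each), with a log2 fold change of 0.24 ± 0.029 (SE) and an edgeR adjusted p of 3.54e-06. COX3 had a log2 fold change of -0.0078 and CYTB of -0.032. After length correction 5 of the 6 rose.

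Among assembly factors, C12orf73 (UQCC6) for complex III and TIMM21 for complex IV had log2 fold changes further below 0 than any subunit, and that of SDHAF4 for complex II was close to that of ATP5PB. For complex III, 3 of 10 fell and 1 rose: C12orf73 (-0.71), UQCC3 (-0.33) and C16orf91 (UQCC4, -0.24), which help to assemble cytochrome b and its partners, fell, and HCCS, which attaches haem to cytochrome c and c1, rose (0.14 on the log2 scale). C12orf73 was at 13.5 ± 1.70 CPM in the 3 control libraries against 8.22 ± 0.524 CPM in the 3 knockdown libraries (mean ± SD, n = 3 each), with an edgeR adjusted p of 3.83e-05. DESeq2 gave 2 and 0, without C16orf91 (adjusted p 0.147) and HCCS (0.143), and each of these calls was also lost in 4 of the 6 fits that left out a library. For complex IV, 8 of 33 fell (24.2%) and 3 rose (9.09%), with 5 and 3 in DESeq2 and 5 to 11 and 2 to 4 when 1 library was left out (5 lower without knockdown library 2). Those with the largest falls were TIMM21 (-0.54), which couples import to complex IV assembly, and PET100 (-0.41), and COX15 (-0.22), an enzyme of haem a synthesis, fell too. COX10, the other haem a enzyme, rose (0.31 on the log2 scale, edgeR adjusted p 0.000977). HCCS and COX10 were chosen after their values were seen.

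Of the 4 factors of complex II, SDHAF4 fell (-0.45 on the log2 scale, edgeR adjusted p 0.0314). The call was lost with DESeq2 (adjusted p 0.119), after length correction (edgeR adjusted p 0.0616) and without control library 2, where the log2 fold change was -0.29 (0.214), knockdown library 1 or knockdown library 3. Of the 6 factors of complex V none passed the threshold in edgeR, DESeq2 or voom, with 1 lower and 0 higher at an unadjusted p under 0.05 in edgeR. In the list of 11 supercomplex and cristae genes 0 fell (0 also with DESeq2, voom and at an unadjusted p under 0.05 in edgeR) and 1, IMMT, rose (0.11). After length correction the numbers that fell and rose were 0 and 1 for complex II, 2 and 1 for complex III, 6 and 4 for complex IV and 2 and 0 for complex V factors.

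The mobile electron carriers and their enzymes gave 2 genes of 14 that fell (14.3%) and 1 that rose. CYCS, cytochrome c, which carries electrons from complex III to complex IV, was at 531 ± 14.2 CPM in the 3 control libraries against 435 ± 14.2 CPM in the 3 knockdown libraries (mean ± SD, n = 3 each). It fell, with a log2 fold change of -0.29 ± 0.032 (SE) (edgeR adjusted p 8.44e-07). COQ3, an enzyme of ubiquinone synthesis, fell (-0.39 on the log2 scale, edgeR adjusted p 0.0316), a call lost with DESeq2 (adjusted p 0.133), after length correction (edgeR adjusted p 0.0636) and in 5 of the 6 fits that left out a library (all but that without knockdown library 3), and COQ10B, a ubiquinone-binding protein, rose (0.25 on the log2 scale). In the tricarboxylic acid cycle, which complex II shares, 5 of 14 genes fell (35.7%) and 3 rose (21.4%). DESeq2 gave 2 and 1, length correction 3 and 4, and leaving out 1 library 2 to 6 that fell (3 without control library 1, and 2 without control library 2, knockdown library 1 or knockdown library 2) and 1 to 2 that rose (1 without control library 3). CS, citrate synthase, had a log2 fold change of -0.28 ± 0.03 (SE) (edgeR adjusted p 5.65e-07), and IDH2, a mitochondrial isocitrate dehydrogenase, one of -0.40 ± 0.072 (SE) (edgeR adjusted p 0.00021), whereas OGDH, a subunit of the oxoglutarate dehydrogenase complex, rose (0.14 on the log2 scale). Of 11 tested regulators of respiratory genes, TFB2M, a mitochondrial transcription factor, fell (-0.20 on the log2 scale), and PPRC1 (0.14), a coactivator, and ESRRA (0.13), a nuclear receptor, rose. The TFB2M call was lost with DESeq2 (adjusted p 0.101) and without control library 1 or 2 or knockdown library 2, where the log2 fold change was -0.13 (edgeR adjusted p 0.165). That on ESRRA (edgeR adjusted p 0.0455) was lost with DESeq2 (0.136), with the replicate block (0.0754) and without control library 2 or 3 or knockdown library 2 or 3, with 0.089 on the log2 scale without control library 3 (edgeR adjusted p 0.21). PPRC1 passed in all of these fits. PPARGC1A, the best known coactivator of these genes, was near 0 and was not tested.

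Before length correction, the share that fell in other mitochondrial gene families lay between that of the members and that of the whole table. Of 41 tested complex I subunits, 10 fell (24.4%) and 1 rose, and their median log2 fold change was -0.057. Of 78 mitochondrial ribosomal protein genes, 27 fell (34.6%) and 4 rose, with a median of -0.085, close to that of the members. After length correction 5 complex I subunits fell and 5 rose, and 16 mitochondrial ribosomal protein genes fell and 9 rose. Beside them, 6 of the 44 members fell and 4 rose, and over all tested genes 20.1% fell and 20.3% rose, so that order was not kept. These families share the libraries and the control group with the members, and no difference between them was tested.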

How the data were processed

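RNA-seq libraries, 6 in all, were made from total RNA of SW403 cells in 2 groups of 3. The authors deposited whole-number read counts per gene symbol and a normalized signal, each library's counts divided by 1 constant (0.847 to 1.25), for genes with a summed count of at least 10. The submitters' processing notes name STAR 2.6.1a, Salmon, DESeq2 and hg19, without role or order. The counting tool's settings, strand handling and annotation are not given in the sources used here. The library kit is PCR-amplified without molecular identifiers named in the labels, so counting precision rests on the totals of 11816973 to 18114656 counts and covers counting error only. No column of per-sample values was left unused (0).

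Counts were tested with edgeR 4.0.16 (R 4.3.3): TMM factors, filterByExpr, a quasi-likelihood F-test with no term but group, and Benjamini-Hochberg adjustment over all 13832 tested genes, with a threshold of 0.05. Standard errors come from the log2 fold change and the square root of its F statistic. An exact permutation test of 1 gene cannot go below a two-sided p of 0.1 here. Alternatives were other scalings, other filters (none, or 50 or more counts on average), the DESeq2 1.42.0 Wald test, limma 3.58.1 (voom, and log2 of the deposited normalized signal plus 1), thinning to the smallest library, a replicate block, a length correction, a threshold of 0.01 and leaving out each library. The length correction removed, per library, a robust spline (5 degrees of freedom) fitted on genes that average 200 counts or more. Gene models come from GENCODE 44 lifted to GRCh37. Copies were sought with blastn 2.17.0. The fits were tested on simulated counts. Members, lists and tests were chosen with earlier results of these data known. Named with the values of every library were, per complex, up to 6 members with the smallest p past the threshold, those called in the opposite direction, all of complex II and the paralogue families. From each list up to 3 genes with the smallest p were named.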

Additional observations from a re-analysis of the deposited data

How the results depend on the processing

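The 44 tested members gave 836 values over 19 alternatives, of which 683 kept both direction and call, 87 lost the call, 21 gained one and 45 changed sign. ATP5PB, ATP5MC3 and UQCRC2 fell, and COX7C rose, in all 19. The number of members that fell, 17 in the analysis reported, was 9 with the DESeq2 Wald test, 6 with the length correction, 6 with the length correction and replicate block, and 9 at an adjusted p under 0.01, and from 8 to 22 when 1 library was left out. The number that rose, 3 in the analysis reported, was 5 with the length correction and replicate block, 1 at an adjusted p under 0.01 and 1 to 3 when 1 library was left out. For complex II, 1 member fell with upper-quartile factors, with library size alone, with a filter of 50 counts on average and with the least-squares length trend, and 0 to 1 when 1 library was left out. For complex III the count was 2 with the Wald test, 4 with the replicate block, 3 with the length correction with or without the block, 3 at an adjusted p under 0.01, and 3 to 7 when 1 library was left out. For complex IV it was 0 with the length correction with or without the block, 1 at 0.01, and 1 to 4 when 1 library was left out. For complex V it was 5 with the Wald test, 3 with the length correction with or without the block, 5 at 0.01, and 4 to 10 when 1 library was left out. The cause of the differences between tests was not tested; the fits with a library left out have fewer samples.

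The length correction gave complex medians of 0.0087 (II), -0.069 (III), 0.0127 (IV) and -0.025 (V), and with the replicate block 0.0099, -0.070, 0.0140 and -0.029. When 1 library was left out, the medians ran from -0.070 to -0.042 (II), -0.134 to -0.106 (III), -0.093 to -0.016 (IV) and -0.132 to -0.067 (V), and the IRS2 log2 fold change from -1.42 to -1.35. Signs changed under the length correction, without and with the block, for SDHB (0.013 and 0.015), SDHC (0.0044 and 0.0052), UQCRH (0.069 and 0.068), COX5A (0.013 and 0.014), COX5B (0.040 and 0.040), COX6B1 (0.045 and 0.044), COX6C (0.0035 and 0.0061), COX8A (0.0067 and 0.0061), ATP5F1C (0.020 and 0.019), ATP5F1E (-0.0034 and -0.0019), ATP5MC1 (0.029 and 0.028), ATP5MC2 (0.039 and 0.039), ATP5MF (0.072 and 0.074) and ATP5MPL (0.010 and 0.0098), and with the block alone added for UQCRQ (0.00057). The least-squares length trend changed the sign of UQCRH (0.020), COX6B1 (0.0011), ATP5F1E (-0.0051) and ATP5MF (0.032). Upper-quartile factors and library size alone did so for COX7B (-0.0050 and -0.015) and ATP5F1E (-0.011 and -0.021), and the filter of 50 counts on average for ATP5F1E (-0.0036). Leaving out 1 library did so for UQCRH (0.020 without control 2, 0.0022 without knockdown 1, in a range down to -0.060), COX7B (-0.023 without control 3, -0.0016 without knockdown 3, in a range up to 0.070), ATP5F1E (-0.0060 without control 3, in a range up to 0.031) and ATP5MF (0.015 without control 1, 0.0036 without control 2).

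Both groups carry replicate numbers 1 to 3, but libraries that share a number deviated from their groups with correlations of 0.045, -0.011 and -0.098, so the numbers were not taken to pair the libraries. With the replicate block 13 members fell and 2 rose, all of them among the 17 and 3. Standard errors of the members' log2 fold changes ran from 0.028 to 0.11, so differences as small as that of most members were near the limit of 3 libraries a group.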
